A study of Mus musculus with 384 samples.

Results

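Bst2, Itgax and Cd68, the dendritic and macrophage genes of a single-cell quantitative PCR panel, are 3 of its 96 assays, chosen by name from the rows BST2, CD11C and Cd68. The cells are common lymphoid progenitors (CLPs) of mouse bone marrow, the progenitors from which B, T, natural killer and some dendritic cells can arise. The question the study's title raises is how unlike one another the cells of such an early lymphoid gate are. Every well came from wild-type mice of the strain C57/Bl6, with no other genotype and no treatment in any group, and the gate was Lin- B220- Flt3+ Il7r+ Kitlow Sca1low. Age, number and pooling of animals were not given in the sources used here.

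Each of 4 plates, P0 to P3, held 90 single cells, 4 wells without reverse transcription (no-RT), 1 well of 10 cells and 1 well of 20 cells, 384 wells in all. The value of a well is the cycle (Ct) at which an assay's product crossed the detection threshold, so a lower Ct means more template. A value of 40 stands for no product. A product was counted where the Ct was below 28, and the level was 28 minus Ct, in cycles. A no-RT well can amplify only template that is not cDNA made in that well, so it gives the background of an assay. No cell number is recorded here for the no-RT wells. Their shares and levels were thus compared with those of single cells without regard to cell number. Quality control left out 13 of the 360 single-cell wells and kept 86 on P0 and 87 on each other plate, with products for 22 to 54 assays (median 43), against 1 to 9 in no-RT wells. The wells left out had no product of Bst2, Itgax or Cd68. A product of Kit was found in 97.4% ± 1.1 of the cells, where the value after ± is, here and for each share below, the SD over 4 plates. Flt3, Il7r and Ly6a (Sca1) had no matched assay, so the gate was checked by Kit alone. The plates served as replicates. The labels do not tie them to separate animals, so p-values measure only how plates differ, and that spread may be technical.

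Bst2 encodes tetherin, an interferon-inducible membrane protein that holds budding enveloped viruses at the cell surface, and in mice it is a known surface marker of plasmacytoid dendritic cells. Itgax encodes CD11c, the integrin alpha X chain that marks conventional dendritic cells and is also carried by some macrophages and natural killer cells. Cd68 encodes a heavily glycosylated protein of late endosomes and lysosomes, abundant in macrophages and present in dendritic cells. CLPs are not mature cells of either kind, so a transcript here is a measure of lineage gene transcription within a progenitor gate.

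The promoters of the 3 genes are shown because Bst2 and Itgax were found in the same cells more often than independence predicts on each plate, as described below. Cd68, with its no-RT products, could enter only a co-detection fit added after seeing the data. No pair of Cd68 with Bst2 or Itgax was called there. They are RefSeq windows on GRCm38.p6, from 250 bases before to 50 bases after the start of transcription, printed 5′ to 3′ on the gene's strand. Bst2 lies at chr8:71537423-71537722 (minus strand), Itgax at chr7:128129300-128129599 (plus strand) and Cd68 at chr11:69666121-69666420 (minus strand). The positions of the assays' own primers and probes were not analysed here.
Bst2: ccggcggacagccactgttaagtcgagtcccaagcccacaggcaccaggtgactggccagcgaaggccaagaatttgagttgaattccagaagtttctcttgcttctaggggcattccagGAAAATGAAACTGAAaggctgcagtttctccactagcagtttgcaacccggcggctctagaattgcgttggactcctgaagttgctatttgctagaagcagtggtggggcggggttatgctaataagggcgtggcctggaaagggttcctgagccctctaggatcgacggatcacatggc
Itgax: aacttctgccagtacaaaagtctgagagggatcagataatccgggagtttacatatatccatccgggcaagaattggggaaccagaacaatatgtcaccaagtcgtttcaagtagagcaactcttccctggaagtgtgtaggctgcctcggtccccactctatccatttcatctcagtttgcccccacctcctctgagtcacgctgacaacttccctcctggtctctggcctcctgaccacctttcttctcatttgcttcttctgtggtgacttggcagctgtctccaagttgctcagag
Cd68: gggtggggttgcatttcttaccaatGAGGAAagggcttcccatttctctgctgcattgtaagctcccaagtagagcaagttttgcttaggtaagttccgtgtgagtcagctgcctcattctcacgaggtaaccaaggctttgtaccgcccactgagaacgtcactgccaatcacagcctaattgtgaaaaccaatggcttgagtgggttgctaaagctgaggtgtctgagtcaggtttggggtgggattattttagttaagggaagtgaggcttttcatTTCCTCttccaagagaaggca
Capitals mark matches, on either strand, to the core of an interferon-stimulated response element, GAAANNGAA, or to the PU box GAGGAA bound by Ets factors such as PU.1. Bst2 held 2 overlapping matches to the first motif, the farther of them 130 bases before the start. Of 32851 RefSeq promoter windows of the same length, 8.56% held that motif. Cd68 held 2 matches to the PU box, near the far end of the window and, on the opposite strand, 29 bases after the start, and 28.3% of windows held that motif. The Itgax window held neither set of letters. Such matches describe the sequence only, and no binding was measured.

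Bst2 was found in most cells of the gate and in no no-RT well. On P0 to P3, 73 of 86, 71 of 87, 73 of 87 and 71 of 87 cells had a product (84.9%, 81.6%, 83.9% and 81.6%), a mean of 83.0% ± 1.7. The 4 plates lay within a few points of each other, and each exact 95% binomial interval, the widest of which ran from 71.9% to 89.1%, overlapped the other 3. None of the 16 no-RT wells had a Bst2 product, which allows a share of up to 18.8% by 3 counts of 16. The exact upper limit for 0 of 16 is 20.6%. The share in cells was above that limit on all 4 plates, and it was 83.0 points higher than in no-RT wells (exact two-sided permutation test over plates, p = 0.0286, the smallest that 4 plates against 4 can give). In a limma fit over all 88 assays with a product in either group, Bst2 was called higher in cells (adjusted p = 2.31e-10), as were 69.3% of the assays tested. That fit also called 12 rare assays lower in cells by the way it treats groups of 4 wells, so the exact limit is the firmer measure here, and 53.4% of assays passed it on every plate.

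The level of Bst2 varied little among the cells that had it. Median Ct values on P0 to P3 were 14.5, 14.2, 14.7 and 15.4, and the interquartile ranges were 1.75, 1.34, 2.04 and 1.48 cycles. P3 had the latest median and P1 the earliest, with overlapping cells. Only 4 cells, 1.39% of those with a product, had a Ct above 20, all of them on P0, and the latest was at 25.4. No well had a Bst2 Ct between 28 and 40, so its calls did not turn on the threshold. Bst2 Ct rose with the mean Ct of the reference genes Atp5a1, Hprt and Tfrc across cells of a plate, with Spearman's rho between 0.19 and 0.60 over 69 to 72 cells. The 2 measures share the well and its reverse transcription, so this is a description only. Cells without Bst2 had median reference Ct values that were later than those of cells with it by 0.35 to 1.01 cycles on the 4 plates.

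Wells of 20 cells held Bst2 at Ct 10.1, 10.3 and 10.3 on P0, P1 and P2, and at 40 on P3. The first 3 wells lay within 0.40 cycles of the Ct predicted from the single cells of the plate, taken as 20 times their mean 2 to the power of 28 minus Ct, with cells without a product counted as 0. The P3 well stood apart. It had products for 75 assays, and of the 40 assays found in over 50% of the single cells of that plate, Bst2 was the only 1 it lacked. Wells of 10 cells gave 40, 15.5, 10.1 and 10.6. The P0 well at 40 had products for only 29 assays, and the P1 well lay 4.54 cycles later than predicted.

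Itgax was found in a minority of cells, and in no no-RT well. It had a product in 18 of 86, 23 of 87, 22 of 87 and 17 of 87 cells on P0 to P3 (20.9%, 26.4%, 25.3% and 19.5%), a mean of 23.0% ± 3.3. The plates overlapped in their exact intervals, which ran from 11.8% to 37.0% over all of them. With 0 of 16 no-RT wells, Itgax was 23.0 points higher in cells (exact two-sided permutation test, p = 0.0286) and was called higher by limma (adjusted p = 1.79e-05). Its share passed the exact limit of 20.6% on P1 and P2, barely on P0 (20.9%), and not on P3. The exact intervals of the cells began at 12.9%, 17.6%, 16.6% and 11.8% on P0 to P3, below that limit on all 4 plates. The 16 no-RT wells therefore do not bound the background below its share on P3. On the other plates they do so only with counting error in the cells set aside.

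Itgax products came late and spread more widely. Median Ct on P0 to P3 was 17.2, 17.2, 18.1 and 18.3, and the earliest of 80 positive cells was at 15.4 and the latest at 24.6. In 13 of the 80 cells the Ct was above 20, and none lay between 25 and 40. All 4 of the 20-cell wells had the product, at Ct 15.5, 15.8, 14.9 and 15.8, at most 1.18 cycles from the value predicted from single cells. The 10-cell wells on P2 and P3 had it, at 14.9 and 16.5, and those on P0 and P1 were at 40. On P1, where the 10-cell well lacked none of the 41 assays found in over 50% of cells, the single cells predict 2.64 Itgax-positive cells in a draw of 10. Cells with Itgax had slightly earlier reference Ct medians, by 0.18 to 0.63 cycles. Its own Ct showed no steady relation to the reference Ct (rho from -0.24 to 0.38 over 17 to 23 cells). A Ct is not comparable between assays of unlike efficiency, so the later Ct of Itgax was not read as a lower level than that of Bst2.

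**Figure D1:**
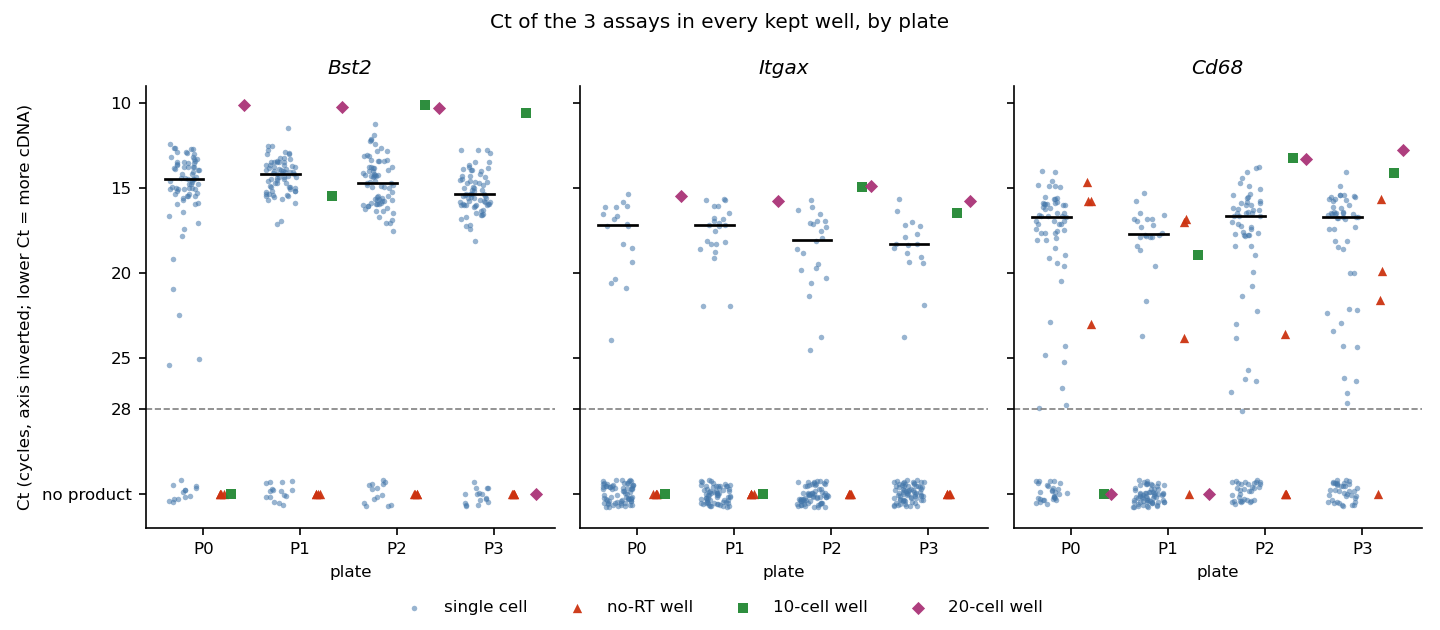
Ct of Bst2, Itgax and Cd68 (y axis in cycles, inverted; wells without a product are drawn on the lowest line) in each single cell that passed quality control, no-RT well, 10-cell well and 20-cell well of plates P0 to P3; black bars are medians of single cells with a product and the dashed line is the threshold of 28. No-RT wells of Bst2 and Itgax are all without a product, while 11 of 16 no-RT wells of Cd68 lie among the single cells.

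Cd68 gave products in single cells and in no-RT wells alike. Its product was present in 57 of 86, 22 of 87, 53 of 87 and 50 of 87 cells on P0 to P3 (66.3%, 25.3%, 60.9% and 57.5%), a mean of 52.5% ± 18.5, or 61.6% ± 4.4 without P1. P1 stood well below the other plates, and its exact interval, 16.6% to 35.7%, overlapped none of theirs. In no-RT wells, Cd68 Ct values were 14.7, 15.8, 15.8 and 23.0 on P0, 40, 23.8, 17.0 and 16.9 on P1, 40, 23.6, 40 and 40 on P2, and 15.7, 21.6, 40 and 19.9 on P3. That is 4, 3, 1 and 3 wells of 4. The earliest no-RT product was at 14.7, 16.9, 23.6 and 15.7 on P0 to P3. The earliest cell of each plate came before it, at 14.0, 15.3, 13.7 and 14.1. The share in cells was 16.3 points lower than in no-RT wells, and higher on only 1 of 4 plates (exact two-sided permutation test, p = 0.371). The limma fit did not call it either (adjusted p = 0.408), and Cd68 passed the exact no-RT limit on no plate. Only 9 of the 96 assays had any no-RT product. Beside Cd68 these included CDw199 (14 of 16 wells), Cd24a and Cxcr4 (13 each), Fut4 and Nfil3 (12 each), Cebpa (7) and Tnfrsf4 (1).

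The amount of Cd68 product also did not separate cells from no-RT wells. Median levels of wells with a product were 11.3, 10.3, 11.3 and 11.3 cycles in cells and 12.2, 11.0, 4.39 and 8.12 in no-RT wells on P0 to P3, the P2 value resting on 1 well. No-RT levels were above those of cells on P0 and P1 and below them on P2 and P3. The means were 11.1 ± 0.51 and 8.94 ± 3.5, a difference of 2.12 cycles with a 95% interval from -1.93 to 6.94 (exact two-sided permutation test, p = 0.343). Without P2 the difference was 0.51. In the limma fit over 7 assays with no-RT products on at least 3 plates, 28.6% were called higher in cells, Cd24a among them, and Cd68 was not (adjusted p = 0.44). Counting a cell only where its Cd68 Ct was earlier than the earliest no-RT well, 14.66, left 3, 0, 4 and 1 cells on P0 to P3, or 8 in all (2.31% of kept cells, exact 95% interval 1.0% to 4.49%). That limit was set by a well of P0. Against the earliest no-RT well of the same plate (14.7, 16.9, 23.6 and 15.7), a comparison added after seeing the data, 3, 7, 48 and 10 cells were earlier on P0 to P3, or 3.49%, 8.05%, 55.2% and 11.5%. The count thus turns on which no-RT wells set the limit, and that of P2 rests on its 1 no-RT product. On P0, P1 and P3 most Cd68 products in cells were no earlier than the earliest no-RT product of their plate.

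Cd68 Ct ranged about as widely as Bst2 Ct, from 13.7 to 27.9 against 11.2 to 25.4, and Itgax Ct from 15.4 to 24.6. Medians of Cd68 Ct were 16.7, 17.7, 16.7 and 16.7 on P0 to P3, so P1 was low in share and late in Ct. Ct was above 20 in 30 cells, 16.5% of those with a product, and above 25 in 12. One further well, on P2, had a Ct of 28.16, just outside the threshold, against 27.94 for the last well inside it. The 20-cell wells were at 40, 40, 13.3 and 12.7 and the 10-cell wells at 40, 18.9, 13.2 and 14.1. The 20-cell wells of P0 and P1 thus lacked Cd68, where the single cells of those plates predict 13.3 and 5.06 positive cells in a draw of 20. On P2 and P3 the wells of both sizes lay at most 0.754 cycles from the predicted Ct. No-RT wells with a Cd68 product had products for a median of 6 other assays (range 4 to 8, 11 wells), and those without one a median of 4 (range 1 to 6, 5 wells).

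**Figure D2:**
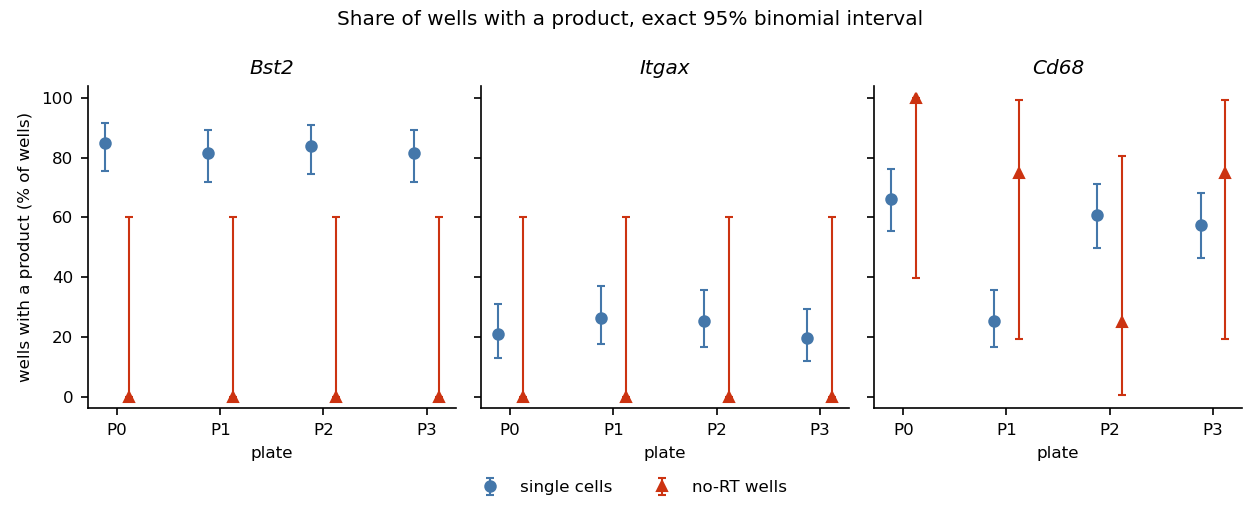
Share of wells with a product (y axis, % of wells) for Bst2, Itgax and Cd68 on plates P0 to P3, in single cells and in 4 no-RT wells per plate; bars are exact 95% binomial intervals, which cover counting error only. Bst2 lies between 81.6% and 84.9% and Itgax between 19.5% and 26.4% with no-RT wells at 0, whereas Cd68 no-RT wells lie at or above the cells on 3 of 4 plates.

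Bst2 and Itgax were found together. On P0 to P3, 17 of 18, 22 of 23, 22 of 22 and 16 of 17 Itgax-positive cells had Bst2, against 82.4%, 76.6%, 78.5% and 78.6% of Itgax-negative cells. In all, 77 of 80 Itgax-positive cells had Bst2, where independence predicts 66.4, and 3 cells had Itgax without Bst2. The log2 odds ratio of detection in the same cell, with 0.5 added to each count, was 1.37, 2.23, 3.66 and 1.62 by plate, all above 0, with the value on P2 set in part by the pseudocount, since no cell there had Itgax alone. Its mean was 2.22 ± 1.03 (SD, n = 4), called by limma over all 1176 pairs of 49 assays (adjusted p = 0.0248). Of these pairs, 2.98% were called positive and 1.62% negative. With cells first split at the plate's median reference Ct the value fell to 1.59 (adjusted p = 0.0177, limma), and with a split at the median number of assays to 1.63 (adjusted p = 0.0157, limma). The pair was called in both, but these fits called 9.95% and 10.1% of all pairs, against 4.59% without a split. It was lost without P1 (adjusted p = 0.0982), P2 (0.099) or P3 (0.101), fits that call 11 to 43 pairs of 1176 in all. Among cells with both, the Ct values of Bst2 and Itgax were weakly related (rho from 0.07 to 0.38 over 16 to 22 cells of a plate).

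Beyond Itgax, no partner of Bst2 passed the test: 1 of 48 pairs was called, or 2.08%, below the share of all pairs. The partners most like Bst2 by mean log2 odds ratio were, after Itgax, Csf3r, the G-CSF receptor (1.58 ± 1.17, limma adjusted p = 0.118), Itgav, the integrin alpha V chain (1.55 ± 1.53, 0.177), Hoxa9, a homeobox factor of multipotent progenitors (1.51 ± 1.0, 0.115), and Zfp521 (1.19 ± 1.23, 0.263). Csf3r and Hoxa9 were above 0 on all 4 plates and were called under 4 of 8 other settings, each of which called over 100 pairs. The least like were the B lineage factor Ebf1 (-0.87 ± 1.86), TCF (-0.83 ± 0.82), Bst1 (-0.71 ± 1.34), Cd72 (-0.67 ± 1.52) and Pax5 (-0.52 ± 1.23). None of these was called, and none had 1 sign on all plates. TCF is the file's name and matched no gene.

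Itgax had 2 called pairs of 48, or 4.17%, near the 4.59% of all pairs called in either direction. They were with Bst2 and with CD284, the CD name of the lipopolysaccharide receptor Tlr4, which the name table did not match. CD284 was present in 16, 20, 0 and 12 cells on P0 to P3. Itgax was found in 6 of 16, 8 of 20 and 6 of 12 CD284-positive cells on P0, P1 and P3, against 17.1%, 22.4% and 14.7% of the rest. The mean log2 odds ratio was 1.69 ± 0.55 (limma adjusted p = 0.0477), with 1.53, 1.20, 1.54 and 2.49 by plate. The P2 value comes from the pseudocount alone, as no cell there had CD284. Leaving out any 1 plate ended the call (adjusted p between 0.0998 and 0.208, limma; 1.74 and 0.102 without P2). The next most like were Cd180 (RP105, a Toll-like receptor homolog of B cells and myeloid cells) at 1.31 ± 1.59, the TNF receptor Tnfrsf1b at 1.04 ± 0.54 and Cd244a at 1.0 ± 2.0, none called.

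The B lineage factor Pax5 had the lowest odds ratio with Itgax. Of Pax5-positive cells, 4 of 22, 0 of 22, 1 of 21 and 3 of 25 had Itgax on P0 to P3, against 21.9%, 35.4%, 31.8% and 22.6% of the others. The share was lower in Pax5-positive cells on every plate, by little on P0 and most on P1. The log2 odds ratio was -2.13 ± 1.97, with -0.24, -4.64, -2.69 and -0.94 by plate, and was not called (limma adjusted p = 0.104), the P1 value being set by the pseudocount. It was called under 4 of 8 other settings (adjusted p from 0.0259 to 0.0451, limma), each of which called over 100 pairs, and without P1 it was -1.29 (adjusted p = 0.387). Then came Gfra2, a GDNF family receptor (-1.44 ± 2.1), H2-M3 (-1.39 ± 1.45), Cd72 (-0.72 ± 0.54) and Klrb1c, the NK1.1 antigen (-0.64 ± 1.72), none called.

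**Figure D3:**
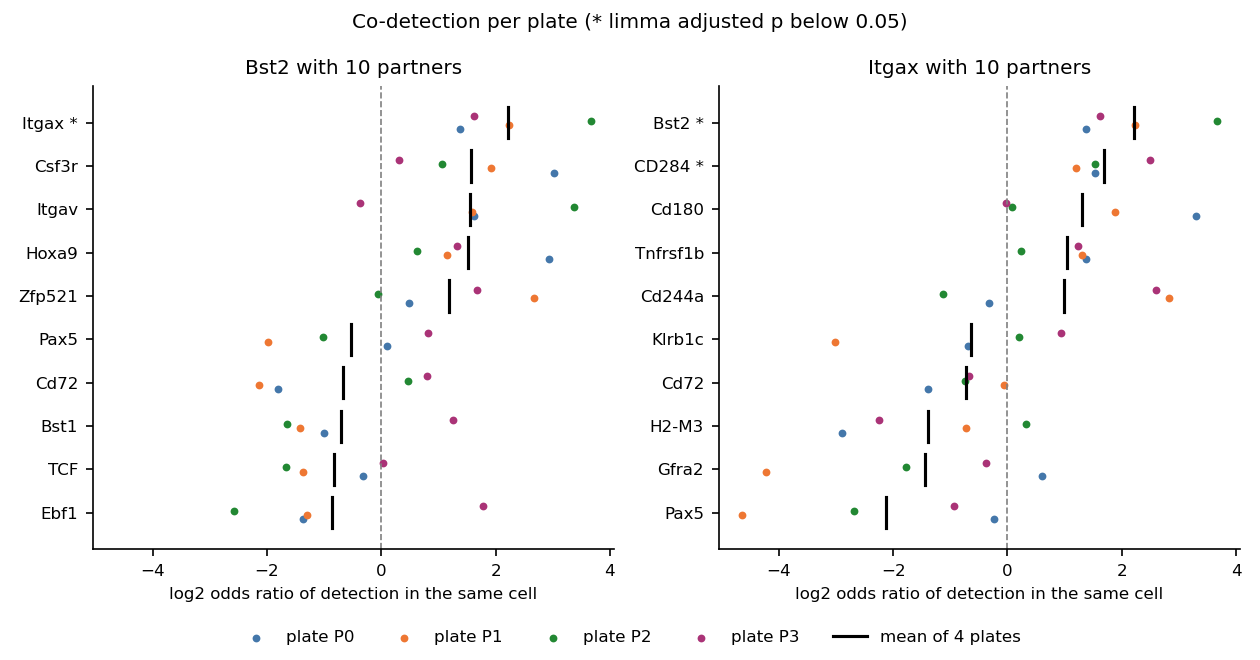
Log2 odds ratio of detection in the same cell (x axis) for Bst2 and for Itgax with the 5 partners of highest and the 5 of lowest mean; coloured points are plates P0 to P3, black bars their means, and an asterisk marks a limma adjusted p below 0.05. The pair of Bst2 and Itgax is above 0 on all 4 plates, at 1.37 to 3.66.

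None of the other dendritic genes of the panel was called with Bst2 or Itgax. The dendritic list had 7 of its 16 genes in the panel. Besides Bst2 and Itgax these were Ly6d, found in 70.3% ± 4.6 of cells and also a B lineage marker, Id2, an inhibitor of basic helix-loop-helix factors (43.8% ± 9.2), Csf1r, the M-CSF receptor (22.2% ± 2.1), Spib (2.02% ± 1.1) and Cd8a (0.575% ± 0.66). Siglech, Irf8, Batf3 and Zbtb46 were among those without a matched assay, and CDw199, the CD name of Ccr9, was not matched by the table and not counted. With Bst2, 1 of 4 testable dendritic partners was called, and 3 of 4 log2 odds ratios were positive with a median of 0.77, against 0.11 over all pairs. For Itgax the counts were the same, 1 of 4 called and 3 of 4 positive, with a median of 0.49. The call was in both cases the pair of Bst2 with Itgax, which also entered both medians. Of all pairs, 2.98% were called positive. Csf1r was at 0.79 ± 1.91 with Bst2 and 0.31 ± 0.73 with Itgax, and Ly6d at -0.42 ± 1.53 and -0.54 ± 0.68. Id2 was at 0.76 ± 0.55 with Bst2 and 0.68 ± 0.93 with Itgax, and neither pair was called. The 5 matched B lymphoid partners were Bst1, Ebf1, Gfra2, Ly6d and Pax5. None was positive and none was called for Bst2 (median -0.52) or for Itgax (median -0.60). The list also names Foxo1 and Tcf3, and the assays FOX01 and TCF3E2A, which the table did not match, were not counted. FOX01 was at 0.43 ± 1.62 with Bst2 and at -0.53 ± 0.96 with Itgax. TCF3E2A was at 1.18 ± 0.67 and 0.46 ± 1.0, and none of these pairs was called.

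The macrophage and monocyte list had 5 of its 14 genes matched in the panel. Beside Cd68 these were Ly86, the MD-1 partner of Cd180 (55.0% ± 4.6 of cells), Cebpa, a myeloid transcription factor with products in 7 of 16 no-RT wells (35.4% ± 4.6), Csf1r and Klf4 (14.1% ± 6.1). Adgre1, Itgam, Cd14 and Lyz2 had no matched assay. The assay CD64A_B, which the table did not match and the list did not count, had a product in 9 cells and in no no-RT well. With Bst2, 1 of 3 testable pairs of matched genes was positive (median -0.33), and with Itgax 1 of 3 (median -0.16), none called. Tlr4 is also on this list, but its assay CD284 was not matched by the table and not counted. CD284 was at -0.49 ± 1.43 with Bst2, not called, and at 1.69 ± 0.55 with Itgax, called as given above. Of the granulocyte list, Csf3r, Gfi1 and Il6ra were testable, with 2 of 3 positive for each of the 2 genes and none called. Stem and multipotent partners (Cd34, Fli1 and Hoxa9) were all positive for both genes, with medians of 0.78 for Bst2 and 0.70 for Itgax, none called.

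Cd68 could not enter that fit, which took assays with products in fewer than 4 of 16 no-RT wells, nor a second one that counted only cells earlier than every no-RT well, since 5% of cells were needed. Bst2 with Itgax was called in that second fit too (2.22, limma adjusted p = 0.0301), where 2.59% of 1275 pairs were positive, and Itgax with CD284 was not (adjusted p = 0.0518). A further fit, added after seeing the data, took all assays in 5% to 95% of cells without regard to no-RT wells. Of its 1485 pairs, 3.30% were called positive. None of the 54 pairs of Cd68 was called, and 6 had an unadjusted p under 0.05, all positive. Cd68 was at -0.10 ± 0.70 with Bst2 and at -0.20 ± 1.66 with Itgax. Its sign with Itgax differed between plates: 14.0% of Cd68-positive and 34.5% of Cd68-negative cells had Itgax on P0, but 28.0% and 8.11% on P3. Of the matched genes of its own list, 0 of 4 partners were called and 1 was positive: Cebpa was at 0.65 ± 0.72, Klf4 at -0.04 ± 0.53, Ly86 at -0.29 ± 0.74 and Csf1r at -0.38 ± 0.92. Their median was -0.17, against 0.13 over all pairs of the fit.

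The partners most like Cd68 in that added fit were Tnfrsf4 (OX40; 2.04 ± 1.93, limma adjusted p = 0.113), Cxcr4, the CXCL12 receptor (1.95 ± 1.42, 0.0755), Nfil3 (1.44 ± 0.62, 0.0955), Cd34 (1.11 ± 0.76, 0.215) and H2-M3 (1.06 ± 0.80, 0.237). Tnfrsf4, Cxcr4 and Nfil3 had no-RT products of their own, and the part of such template in these values was not tested. The least like were Il3ra (-0.54 ± 1.41), Il12rb1 (-0.51 ± 0.21), Cd86 (-0.39 ± 0.58), Csf1r and Il2rb (-0.33 ± 1.39). Bst2 with Cxcr4 was called in this fit (2.04 ± 0.89, adjusted p = 0.0316, limma). Bst2 was present in 84.1% of cells with Cxcr4 and 63.2% of 19 cells without it, and Cxcr4 had products in 13 of 16 no-RT wells. The call was lost on leaving out any 1 plate (adjusted p from 0.0525 to 0.153, limma). Where Cxcr4 was counted only in cells earlier than every no-RT well, the same pair was at -0.73 ± 0.94, below 0 on all 4 plates and not called (adjusted p = 0.478, limma), so its direction depends on how the Cxcr4 background is treated.

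All 3 genes were found together in 38 cells, close to the 34.1 that independence on each plate predicts. Bst2 with Itgax but not Cd68 was found in 39 cells against 32.3 predicted, and Itgax without Bst2 in 1 cell with Cd68 and 2 without, where 6.8 were predicted for each. Cells with Cd68 alone numbered 30, and 26 cells had none of the 3. The shares with Cd68 move with the plate: cells with Bst2 and Itgax but not Cd68 made up 21.8% on P1 and 3.45% to 10.5% on the others.

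The level of Cd68, among cells that had it, was lower in cells with Pax5. Mean Cd68 Ct on P0 to P3 was 19.9, 19.8, 19.9 and 19.5 in 15, 5, 9 and 16 Pax5-positive cells, and 17.1, 17.3, 17.3 and 17.8 in 42, 17, 44 and 34 Pax5-negative cells. Pax5-positive cells were later on each plate, although single cells of both kinds overlapped. The level difference was -2.41 ± 0.44 cycles (-2.79, -2.50, -2.56 and -1.77 by plate). It was called by limma over 1889 ordered pairs of assays (adjusted p = 0.0036), of which 2.06% were called positive and 0.847% negative. It held in every fit that left out a plate (-2.28 to -2.62, adjusted p from 0.0088 to 0.046, limma) and after subtracting the level of the cell's reference genes (-2.30, adjusted p = 0.0053, limma). With medians in place of means, an alternative added after seeing the data, it fell to -1.08 (adjusted p = 0.0498, limma). Late products were part of the difference, since Ct was above 20 in 5 of 15, 2 of 5, 3 of 9 and 5 of 16 Pax5-positive cells, against 3 of 42, 0 of 17, 6 of 44 and 6 of 34 of the rest.

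The Pax5 difference stands beside 2 facts on the assays. Of 47 assays tested against Pax5, 5 were called lower: Cd34 (-2.62 ± 0.78), a surface protein of multipotent progenitors with no no-RT product, Cd68, CDw199 (-2.41 ± 1.35), Nfil3 (-1.14 ± 0.50) and Selplg (-1.0 ± 0.25), also with none. Another 3 were called higher, Ebf1 (2.44 ± 0.44), FOX01 (1.73 ± 0.24) and Ly6d (1.49 ± 0.29). CDw199 and Nfil3 are, like Cd68, among the assays with frequent no-RT products. Fut4 (-1.60 ± 1.20), Cxcr4 (-0.20) and Cd24a (0.86 ± 0.44), which also have them, were not called. In 11 no-RT wells with Cd68, 4 had a Ct above 20. The part of template other than cDNA in the Pax5 difference was not tested.

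Gfra2 and Csf3r gave the other 2 called differences of Cd68, 3 of 21 partners in all. The Cd68 level was lower by -2.01 ± 0.93 cycles in cells with Gfra2 (-1.45, -1.03, -2.49 and -3.06 by plate, limma adjusted p = 0.0305) and higher by 1.15 ± 0.49 in cells with Csf3r (0.57, 1.10, 1.78 and 1.14, adjusted p = 0.047, limma). Both had the same sign on all plates. Both calls were lost on leaving out any 1 plate (adjusted p from 0.0566 to 0.148, limma), and the Gfra2 value fell to -0.94 (0.0704) when late products, at Ct 25 or above, were not counted. The Csf3r value fell to 0.56 with medians in place of means (adjusted p = 0.217, limma) and was called under 2 of 5 other settings. Ebf1, the remaining testable gene of the matched B lymphoid list, was at -0.99 ± 0.66 and was not called (adjusted p = 0.10, limma). The unmatched assay TCF3E2A went the other way, at 0.55 ± 0.60, and was not called (0.297). Bst2 was at -0.36 ± 0.87 (0.61).

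**Figure D4:**
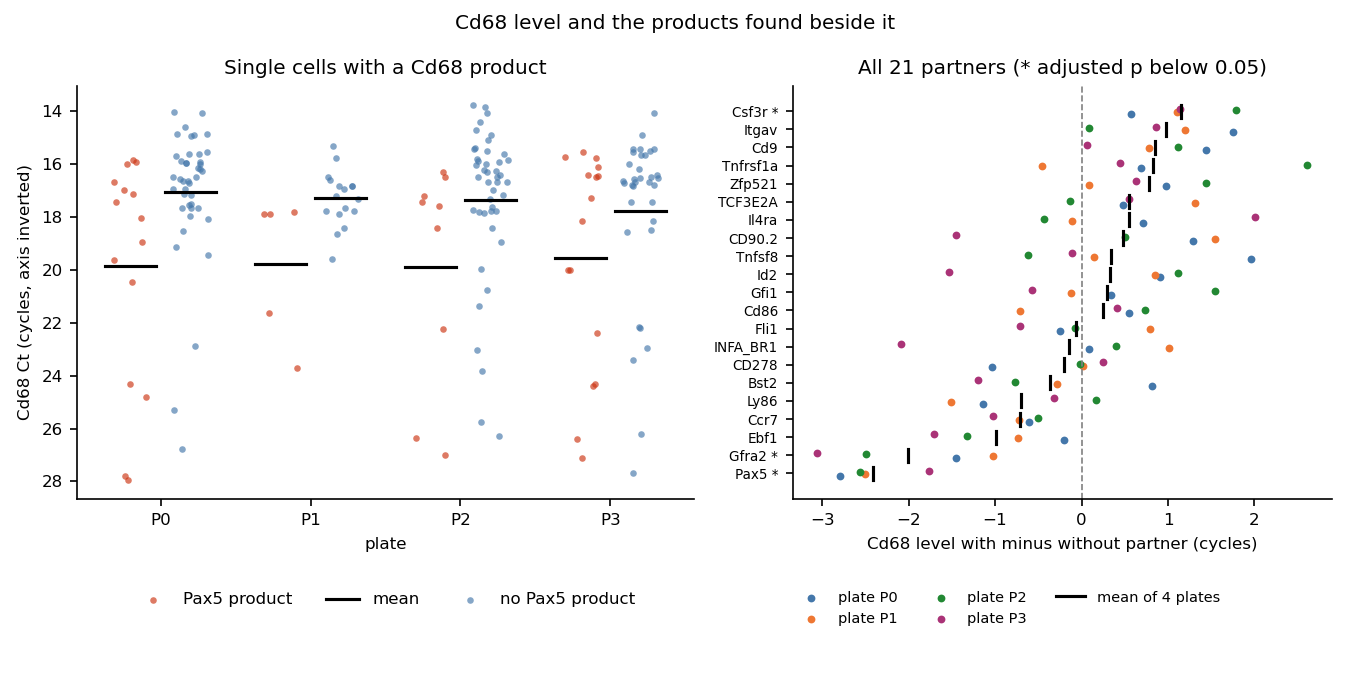
Left, Cd68 Ct (y axis in cycles, inverted) in single cells with a Cd68 product, by plate and by presence of a Pax5 product, with black bars for the means; right, the difference in Cd68 level (x axis, cycles) between cells with and without each of 21 partners, with points for plates P0 to P3 and black bars for their means. Cells with Pax5 have a later mean Ct on each plate (level differences of -2.79 to -1.77 cycles), and the asterisks mark the 3 called partners.

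No partner of Bst2 or Itgax passed the test on their level. None of 41 partners of Bst2 and none of 10 of Itgax was called, and by unadjusted p under 0.05 (limma) there were 0 for Bst2 and 1 for Itgax. These counts stand beside 2.06% called positive and 0.847% negative over the whole fit, so a count of 0 in lists of this size is near the background. The highest difference for Bst2 was with Tnfrsf1b (0.65 ± 0.75 cycles) and the lowest with Gata3, a T lineage and innate lymphoid factor (-0.45 ± 0.88). For Itgax, Ly86 was at 0.50 ± 0.44 (limma adjusted p = 0.269) and the TNF receptor Tnfrsf1a at -0.53 ± 0.20 (0.166), the latter below 0 on all plates.

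Cells were also grouped by their B lineage products Pax5, Ebf1 and Ly6d, as a description. Itgax was found in 8.74% ± 8.0 of cells with Pax5, 27.9% ± 7.1 with Ebf1 and Ly6d but not Pax5, 23.4% ± 11.2 with only 1 of these, and 32.3% ± 13.3 with none. The groups without Pax5 overlapped each other from plate to plate. Shares with Pax5 ran from 0% to 18.2% by plate. They overlapped those with only 1 of these (13.3% to 37.5%) and with none (14.3% to 45.5%). Bst2 was in 78.5% ± 11.2, 81.9% ± 7.1, 87.6% ± 7.9 and 84.3% ± 18.2 of the same groups, and Cd68 in 49.4% ± 21.0, 56.2% ± 18.5, 54.6% ± 22.9 and 47.7% ± 23.3, and for both genes the groups overlapped from plate to plate. Median Cd68 Ct in these groups was 17.8 ± 0.20, 16.8 ± 0.29, 16.8 ± 0.78 and 16.2 ± 0.45.

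**Figure D5:**
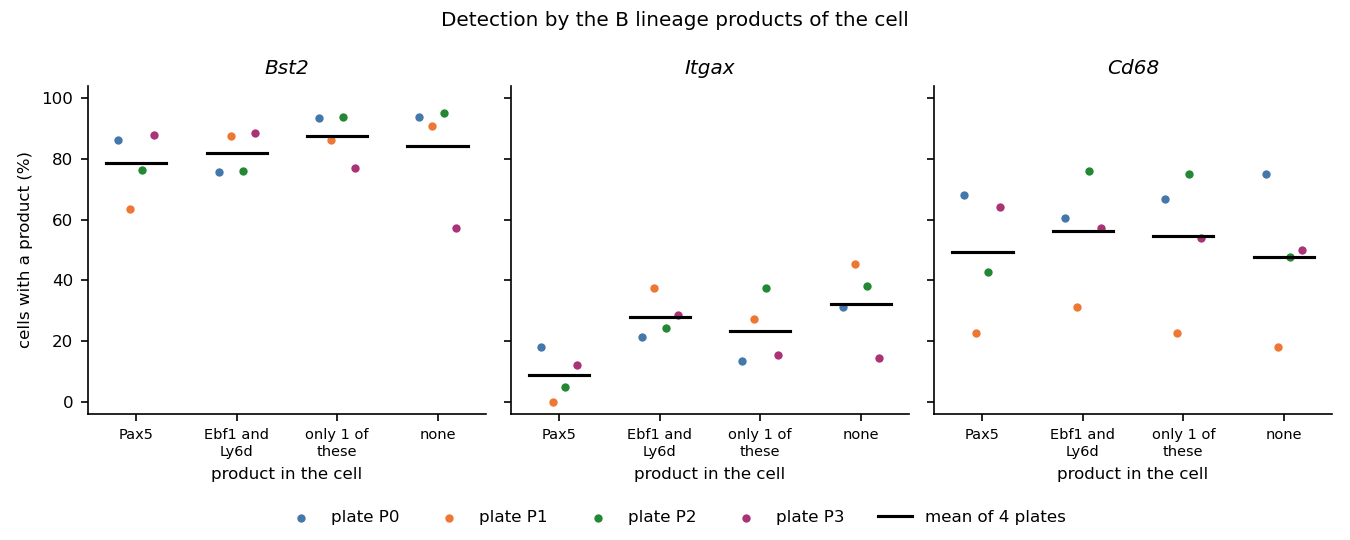
Share of cells with a product of Bst2, Itgax or Cd68 (y axis, % of cells) in cells with Pax5, with Ebf1 and Ly6d but not Pax5, with only 1 of Ebf1 and Ly6d, and with none of the 3; points are plates P0 to P3 and black bars their means. Itgax has its lowest mean, 8.74%, in cells with Pax5, and Cd68 is lowest on P1 in each group.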

How the data were processed

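Per the labels, sorted cells were frozen in lysis buffer, cDNA was made and pre-amplified in each well with the 96 TaqMan assays together, and a Fluidigm array gave the readout. The no-RT wells had Taq only, per the labels. The authors deposited Ct values (a log2-like cycle scale) without normalization, with software and threshold not given in the sources used here. All columns matched a sample title (0 unmapped). Of 96 assay names, 47 matched a symbol and 34 a synonym in a RefSeq table (GRCm38.p6); 15 matched none and keep the file's name.

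Kept cells had a product (Ct below 28) for more than 50% of 4 reference genes and at least 50% of the plate's median number of assays. The reference level is the mean of Atp5a1, Hprt and Tfrc, a choice made after no-RT wells were seen. Some results of the named genes rule are not reported here. Detected shares per plate (Anscombe arcsine, with 0.375 and 0.75 added), median levels, log2 odds ratios and level differences (at least 5 cells in each arm) were fitted over the whole table with limma 3.58.1 in R 4.3.3, Benjamini-Hochberg threshold 0.05. Intervals are exact binomial at 95% and cover counting error only. The arcsine fit called 12 assays lower in cells, all 12 without a no-RT product, since it places 0 of 4 wells at 0.285 and 0 of 87 at 0.0654; exact limits and permutation tests are therefore given beside it. The share fit and the first co-detection fit were tested on simulated data. The level fits and the other co-detection fits were not.

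Named partners are all those called plus the 5 highest and 5 lowest mean log2 odds ratios, the dendritic and macrophage lists, sort markers and reference genes. For level differences without a call, the partners named were chosen after their values were seen, as were the no-RT assays and the assays called beside Pax5. Members and lists were chosen with earlier results of these data known. The plate, a batch that the labels name, is shared by cells and no-RT wells and so pairs them; fits were made without it and repeated with it as a block. Deviations of cells and no-RT wells of a plate correlated between -0.21 and 0.07 across assays for shares and between -0.60 and 0.13 for levels. Other alternatives left out a plate, moved the Ct threshold to 25 or 40, dropped quality control, added 1 in place of 0.5, or split cells at the plate's median reference Ct or number of assays. The 10-cell and 20-cell wells entered no test.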

Additional observations from a re-analysis of the deposited data

Results flagged for a closer look

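Of 23 groups of 4 values tested for a value far from the others, 2 were marked, and chance marks about 1 group in 20. The Bst2 Ct of the 20-cell wells was 40 on P3, against 10.1 to 10.3 on the other plates. The median Cd68 Ct of single cells was 17.71 on P1, against 16.7 on each other plate, on the same plate where the Cd68 share was lowest.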

How the results depend on the processing

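Bst2 and Itgax stayed higher in cells than in no-RT wells under each alternative of the share fit, except that Itgax missed the exact no-RT limit on P3, and Cd68 stayed uncalled under each alternative of the share and level fits, the replicate block included. With the plate as a block (paired fit), 57 assays were higher in share against 61 without it, and 1 assay in level against 2; no member's call changed. With products only at a Ct below 25, 1 assay was higher in level. Leaving out a plate gave 0 to 2. Pairs with a member called in the co-detection fit numbered 2. They were 5 with 1 added, 1 with plates centred, 5 and 6 with cells split at the median number of assays and median reference Ct, 22 without quality control (10 of the wells then added have no product at all), and 0 to 1 with a plate left out. These settings called 9.18%, 3.66%, 10.1%, 9.95% and 21.8% of all pairs, against 4.59%. With background-adjusted calls the count was 1. It was 5 with 1 added, 2 with a Ct below 25 or below 40, 22 without quality control, and 0 with any plate left out. Without the no-RT filter it was 3, and then 10 with 1 added, 9 and 8 with the same splits, 44 without quality control and 0 to 1 without a plate. Level differences with a member called numbered 3. They were 1 with medians, 1 after subtracting the reference level, and 1 with any plate left out, each time Cd68 with Pax5. The cause of these changes was not tested. Within a fit no tracked value changed direction, but Bst2 with Cxcr4 was at 2.04 without the no-RT filter and at -0.73 with background-adjusted calls. Cells with Cd68 earlier than the earliest no-RT well numbered 8, and 68 against that of the same plate, an alternative added after seeing the data. The smallest p that an exact test can give is 0.0286 with 4 plates and 0.1 with 3. The 16 no-RT wells limit the background to a coarse bound, and the sensitivity of each assay is unknown.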
